A study of Mus musculus with 2 samples.

Results

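A set of 10 genes of fat cells was followed in RNA of newborn mouse skeletal muscle. The members were Fabp4, Cfd, Adipoq, Lpl, Plin1, Pparg, Cebpa, Retn, Dgat2 and Gpam. They were chosen by gene symbol from a list of adipocyte genes, with earlier results of these data known. All 10 had a row among the 43346 genes of each deposited table. The tissue came from mice of strain B6NCrl on postnatal day 0, and a portion of muscle from 1 pup went into each library. Each of the 2 libraries, biological replicates 1 and 2 of a single group, was made from 13 pg of total RNA, which the labels equate with 1 cell; it was not an isolated cell. Both libraries carry the same donor entry but separate tissue records, so the spread between them can hold animal, tissue portion and library effects, which cannot be told apart. No treatment or genotype was compared, and no test between replicates is possible: each ratio below is 1 library against 1.

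White fat cells store triglyceride in a droplet coated with perilipin. The nuclear receptor PPARG and the bZIP factor C/EBPA switch on their genes, lipoprotein lipase on the vessel wall frees fatty acids, carrier proteins such as FABP4 bind them inside the cell, and acyltransferases rebuild triglyceride from them. The cells also secrete adiponectin, adipsin and, in mice, resistin. Several of these genes are also active elsewhere: Fabp4 in capillary endothelium and macrophages, and Lpl in muscle fibres and macrophages.

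Of the 10 promoter windows found, 3 are shown. Those of Adipoq and Cfd belong to adiponectin and adipsin, abundant products whose RNA differed between libraries. The other is at the start of the fat-cell form of Pparg, a regulator of both that had almost no reads. Gpam and Plin1, which differed more between libraries than Adipoq, also had windows, not shown here. Each line holds the 250 bases before a RefSeq start on the plus strand of GRCm38.p6, at chr16:23146286-23146535 for Adipoq, chr10:79890603-79890852 for Cfd and chr6:115421816-115422065 for Pparg, where the transcript model Pparg-201 begins.
Adipoq: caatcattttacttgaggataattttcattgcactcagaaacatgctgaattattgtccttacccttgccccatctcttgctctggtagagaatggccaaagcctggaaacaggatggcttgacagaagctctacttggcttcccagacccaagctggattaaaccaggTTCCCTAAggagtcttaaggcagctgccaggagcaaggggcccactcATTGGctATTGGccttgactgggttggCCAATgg
Cfd: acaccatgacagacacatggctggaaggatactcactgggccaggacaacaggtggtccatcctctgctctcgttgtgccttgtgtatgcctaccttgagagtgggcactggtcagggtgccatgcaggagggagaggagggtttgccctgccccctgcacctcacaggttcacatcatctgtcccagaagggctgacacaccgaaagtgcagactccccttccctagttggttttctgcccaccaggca
Pparg: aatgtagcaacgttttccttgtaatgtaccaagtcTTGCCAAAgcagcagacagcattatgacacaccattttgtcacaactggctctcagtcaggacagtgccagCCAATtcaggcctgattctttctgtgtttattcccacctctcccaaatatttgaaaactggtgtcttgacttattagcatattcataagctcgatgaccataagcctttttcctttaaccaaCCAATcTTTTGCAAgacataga
Capitals mark matches, on either strand, to CCAAT, to TTNCNNAA (a loose form of the C/EBP site), to AGGTCA (a nuclear receptor half-site) or to TATAAA. The Adipoq window held 3 matches to CCAAT and 1 to TTNCNNAA, the Pparg window 2 of each, and the Cfd window none of the 4. These motifs are common: CCAAT was found in 33.9% of the 32851 such windows used here, TTNCNNAA in 36.9%, AGGTCA in 14.0% and TATAAA in 12.4%. Windows were found for 7 members, with 10 starts in all, of which 4 held CCAAT, 3 TTNCNNAA, 3 AGGTCA and 2 TATAAA. A match describes letters only. Fabp4, Lpl and Dgat2 were not matched.

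Products of fat cells were present in both libraries, while the regulators Pparg and Cebpa were not detected. Fabp4, Cfd, Adipoq, Lpl, Retn and Dgat2 were found in both, Gpam in replicate 1 only and Plin1 in replicate 2 only. TPM is the length-adjusted share of a gene among all transcripts, and expected counts are its estimated reads; a gene counted as detected from 1 TPM and 5 expected counts upward. Of the 8943 genes detected in at least 1 library, 48.7% were detected in both, 22.3% in replicate 1 only and 29.0% in replicate 2 only; of the 8 members detected at all, 6, 1 and 1 fell in these classes. The 10 members together took 2691 TPM in replicate 1 and 1194 TPM in replicate 2, a mean of 1942 ± 1059 (SD, n = 2). In a bulk sample, fewer cells of a type and less RNA per cell cannot be told apart.

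**Figure D1:**
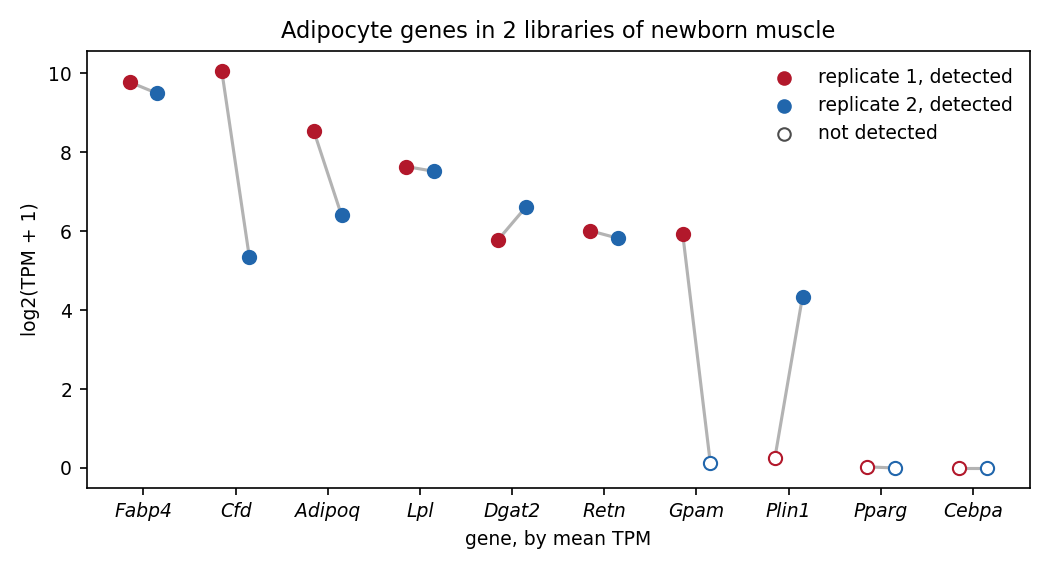
Level of each of the 10 adipocyte genes as log2(TPM + 1), ordered by mean TPM, with replicate 1 to the left of replicate 2 and a line joining them; open circles were below the detection rule. Fabp4, Lpl and Retn lay close together in the 2 libraries, Dgat2 and Adipoq further apart, and Cfd, Gpam and Plin1 far apart. Pparg and Cebpa lay at or near 0 in both.

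Depth was 32103374 expected counts in replicate 1 and 38977618 in replicate 2, with 6350 and 6949 genes detected. All 8 skeletal muscle markers listed were detected in both libraries, where they held 13.4% (replicate 1) and 14.1% (replicate 2) of all TPM. The spike-in share was 9.44% of TPM in replicate 1, against 4.54% in replicate 2. Ratios of replicate 1 to replicate 2 are therefore given on the log2(TPM + 1) scale, centred on the median of genes detected in both libraries, which lay at 0.07 before centring; centring on spike-ins instead lowers each by a further 0.91. Among genes detected in both, the median size of the centred ratio was 0.88. This leaves out the genes lost in 1 library, 51.3% of those detected in at least 1, so the spread over all detected genes was wider. The scale understates differences of low genes.

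Both master regulators lay at the limit of counting. Pparg (chromosome 6, 115360951 to 115490399), the nuclear receptor that drives fat cell formation, had 1 read in replicate 1 and 0 in replicate 2. That read was assigned to Pparg-202, the model that starts upstream, and Pparg-201, whose promoter is shown above, had 0 in both libraries. Cebpa (chromosome 7, 35119293 to 35121928), which encodes its partner factor, had 0 reads in both. Taking a count of 0 to allow up to 3 reads, Cebpa could reach 0.0485 TPM in replicate 1 and 0.0379 TPM in replicate 2, and Pparg 0.0560 TPM in replicate 2. These limits cover counting error only, since reads amplified without molecular identifiers are not independent molecules, and RNA lost before amplification leaves no read.

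The members of lipid carriage and uptake, Fabp4 and Lpl, differed between the libraries by less than the median of genes detected in both. Fabp4 (chromosome 3, 10204088 to 10208576), the fatty acid carrier, had 876 TPM in replicate 1 and 717 TPM in replicate 2, from 19859 and 17965 reads. It was the highest member on average, at 797 ± 113 TPM (SD, n = 2), and ranked 145 among all genes in replicate 1 and 191 in replicate 2. Lpl (chromosome 8, 68880491 to 68907448), the lipase that frees fatty acids from lipoproteins, had 198 TPM in replicate 1 and 182 TPM in replicate 2, a mean of 190 ± 11.2 (SD, n = 2). The centred log2 ratios were 0.22 for Fabp4 and 0.05 for Lpl, both under 0.88, the median size over genes detected in both. That median was taken over genes of every level, and none was computed for genes as high as these. A small ratio is thus not read as a trait of Fabp4 and Lpl. Centred on spike-ins they were −0.69 and −0.86, so which library was the higher depends on the scaling.

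Secreted products split between an even member and uneven ones. Cfd (chromosome 10, 79890853 to 79892655), adipsin or complement factor D, a serine protease of the alternative complement pathway, had 1071 TPM in replicate 1 and 39.3 TPM in replicate 2. It was the highest member of replicate 1, ranking 105 among all genes, and ranked 2716 in replicate 2. From 21525 reads in replicate 1, against 1013 in replicate 2, the TPM was 27.2-fold higher in replicate 1 (95% exact binomial interval 25.5 to 29.0, counting error only), a centred log2 ratio of 4.66. Adipoq (chromosome 16, 23146536 to 23158028), which encodes the hormone adiponectin, had 368 TPM in replicate 1 and 83.3 TPM in replicate 2, from 10712 and 3105 reads. Its centred log2 ratio of 2.06 was just past 4-fold and was 1.15 when centred on spike-ins. Retn (chromosome 8, 3655770 to 3660110), resistin, a hormone of mouse white fat, had 63.3 TPM in replicate 1 and 55.4 TPM in replicate 2, from 1198 and 1342 reads. Its centred log2 ratio was 0.12, and −0.79 when centred on spike-ins.

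Without Cfd, the members summed to 1620 TPM in replicate 1 and 1154 TPM in replicate 2. The ratio of the sums was 2.25 with Cfd and 1.40 without it, and 1.14 with Cfd when the shift of the spike-ins was taken out. That shift is a larger fold than 1.40, so with both steps the sum was the higher in replicate 2. Which library was the higher thus depends on Cfd and on the scaling. Cfd made up 39.8% of the members' TPM in replicate 1 and 3.30% in replicate 2. Fabp4 made up 32.6% in replicate 1 and 60.1% in replicate 2.

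Among enzymes of triglyceride synthesis and the droplet coat, Dgat2 stayed within 4-fold between libraries, while Gpam and Plin1 were far apart in opposite directions. Dgat2 (chromosome 7, 99153658 to 99182719), the acyltransferase of the last step, had 54.2 TPM in replicate 1 and 96.7 TPM in replicate 2, from 2844 and 6504 reads. Its centred log2 ratio was −0.90, and −1.81 when centred on spike-ins. Gpam (chromosome 19, 55067268 to 55127238), the mitochondrial acyltransferase of the first step, had 60.2 TPM in replicate 1 and 0.0900 TPM in replicate 2, from 5486 and 10 reads. Its centred log2 ratio of 5.74 was the largest of the members. The ratio of unadjusted TPM was 669, but with 10 reads in replicate 2 the interval ran from 364 to 1396. Plin1 (chromosome 7, 79720218 to 79732903), perilipin, the coat protein of the fat cell's droplet, went the other way, with 0.190 TPM in replicate 1 and 19.3 TPM in replicate 2. It had 8 reads in replicate 1 and 1060 in replicate 2, giving a centred log2 ratio of −4.16.

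Of the 8 detected members, 4 were past 4-fold between libraries, 3 higher in replicate 1 (Cfd, Adipoq and Gpam) and 1 higher in replicate 2 (Plin1). Over the 8943 genes detected in at least 1 library, 22.4% were past 4-fold and higher in replicate 1, and 29.2% past 4-fold and higher in replicate 2. The members' count is read against these shares: a change of this size between the libraries was common. The median centred log2 ratio was 0.17 over the 8 detected members and −0.21 over those genes. Over all 10 members, with Pparg and Cebpa included, it was 0.08, and −0.83 with spike-in centring. Spike-in centring lowers every ratio by the same 0.91, for the members and for all genes alike. No common direction of the list can be read from this.

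**Figure D2:**
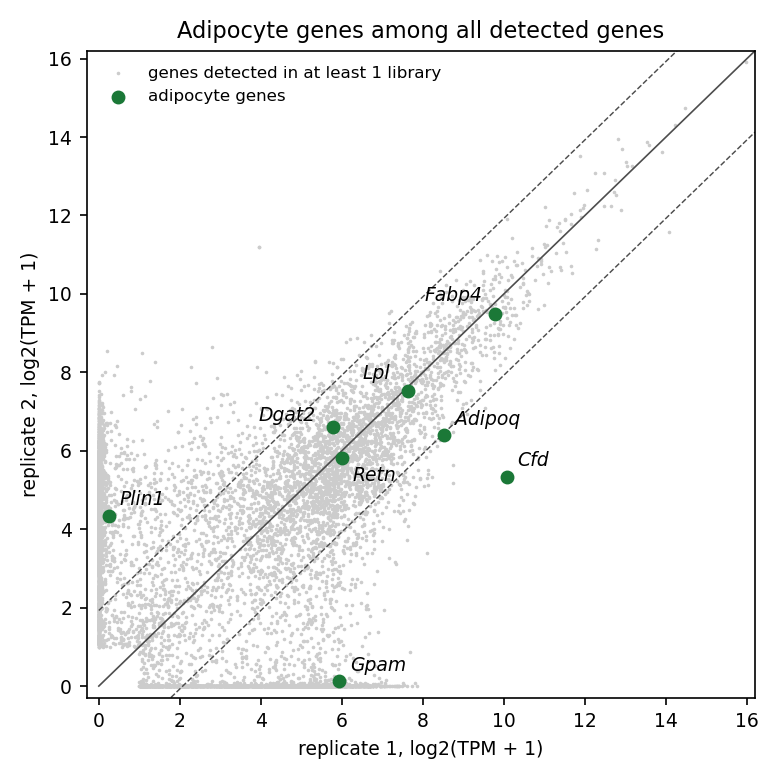
Each gene detected in at least 1 library by its log2(TPM + 1) in replicate 1 (horizontal) and replicate 2 (vertical), with the adipocyte genes in green, a line of equal level and dashed lines at a centred 4-fold difference. Fabp4, Lpl, Retn and Dgat2 lie between the dashed lines, Adipoq just outside, and Cfd, Gpam and Plin1 well outside.

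Gpam and Plin1, 2 of the 8 detected members, were each lost in one library, as were 51.3% of all genes detected in at least 1 library. Neither was at 0: both kept 8 to 10 reads, under the TPM minimum of 1. Gpam stood at 60.2 TPM in replicate 1, and 30.3% of the 2234 genes of 30 to 100 TPM there were not detected in replicate 2. Plin1 stood at 19.3 TPM in replicate 2, and 48.4% of the 1890 genes of 10 to 30 TPM there were not detected in replicate 1. At 100 TPM and over, where Fabp4, Cfd, Adipoq and Lpl lay in replicate 1, 5.40% of genes were lost in replicate 2. These lay at 100 to 300 TPM, the range of Lpl, where 8.37% were lost. At 300 to 1000 TPM, the range of Fabp4 and Adipoq, and at 1000 TPM and over, that of Cfd, 0% were lost. In the other direction, where Fabp4 and Lpl lay, 6.49% were lost in replicate 1, with 10.1% at 100 to 300 TPM (Lpl) and 0.288% at 300 to 1000 TPM (Fabp4). No member of 100 TPM or over in a library was lost in the other.

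**Figure D3:**
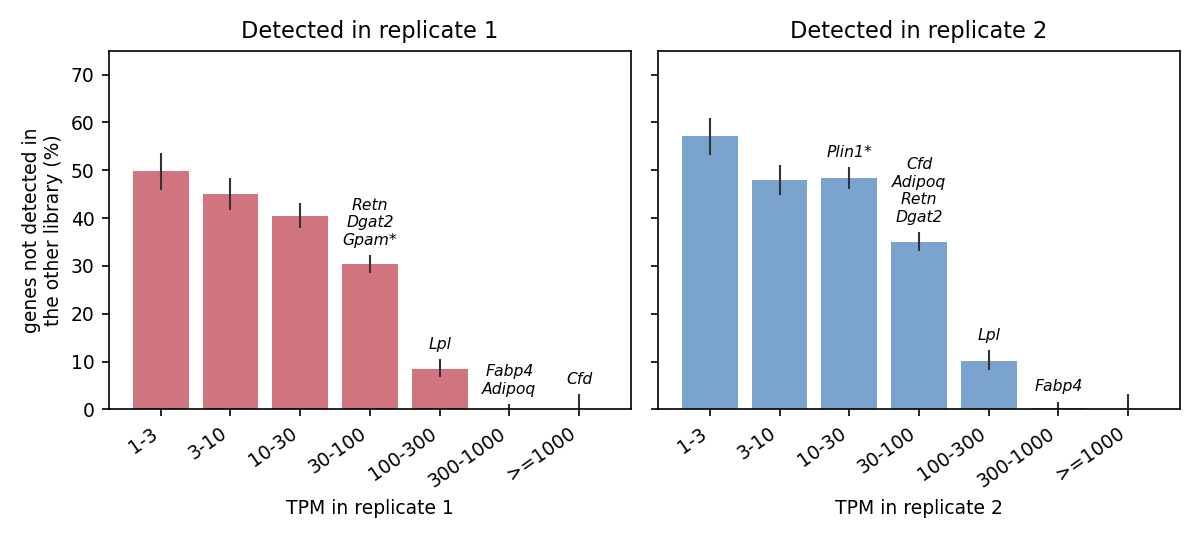
Share of genes detected in one library but not in the other (vertical, percent, with 95% Wilson intervals) by TPM in the library named (horizontal), replicate 1 on the left and replicate 2 on the right. Members are written above the range they fall in and an asterisk marks those lost, Gpam at 30.3% and Plin1 at 48.4%.

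The order of the members was only partly shared. By mean TPM it ran Fabp4, Cfd, Adipoq, Lpl, Dgat2, Retn, Gpam, Plin1, with means of 797 ± 113, 555 ± 729, 226 ± 201, 190 ± 11.2, 75.4 ± 30.1, 59.4 ± 5.59, 30.2 ± 42.5 and 9.72 ± 13.5 (SD, n = 2). For each pair of these genes the log2 ratio of TPM + 1 was taken in each library. Of the 28 pairs, 18 had the same sign in both libraries, and in 7 the mean log2 ratio exceeded 2 SD. Those were Fabp4 over Lpl, Dgat2, Retn and Plin1, Lpl over Dgat2 and Retn, and Cfd over Gpam. Plin1 in replicate 1 (0.190 TPM) and Gpam in replicate 2 (0.0900 TPM) lay under the added 1, which narrows the SD of their pairs. Fabp4 over Plin1 and Cfd over Gpam therefore rest on that added value, and no other value was tried for the pairs. Fabp4 stood above Lpl by 2.06 ± 0.12 and above Retn by 3.72 ± 0.07 in log2 units (SD, n = 2). Of the 7 neighbours in the order, only Lpl over Dgat2 exceeded 2 SD, at 1.38 ± 0.67, and the other neighbours did not differ beyond their spread.

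Transcript models split the reads of few members. The 10 members have 18 models in the files, 13 of which had reads in either library, and 3 members had reads on more than 1. For Lpl, the coding model Lpl-201 took 78.0% of the gene's TPM in replicate 1 and 58.0% in replicate 2, and Lpl-203, annotated as a target of nonsense-mediated decay, took 22.0% in replicate 1 and 42.0% in replicate 2. By reads, Lpl-203, the shorter model, took 11.2% in replicate 1 and 24.5% in replicate 2. For Fabp4, the coding model Fabp4-201 took 96.1% in replicate 1 and 99.9% in replicate 2. The remainder lay on Fabp4-202, which retains intron sequence and is longer, and by reads it took 17.6% in replicate 1 and 0.689% in replicate 2. Retn-201 took 99.9% in replicate 1 and 100% in replicate 2. All reads of Plin1 lay on Plin1-202. The authors' posterior SD of the gene count, which is above 0 where reads fit several genes, was 0 for all 10 members in both libraries, as for 69.7% of the 8943 detected genes. In the annotation an antisense gene overlaps Pparg, another Cebpa and another Gpam; without a stated strand setting their reads cannot be told apart, and they were not analysed here.

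Other genes of the fat cell program were also found in part. The 8 lists, chosen with earlier results of these data known, held 56 genes, of which 23 were detected in both libraries, 13 in replicate 1 only, 6 in replicate 2 only and 14 in neither. Of the 42 detected, 54.8% were found in both libraries, 31.0% in replicate 1 only and 14.3% in replicate 2 only. Over all detected genes, these shares were 48.7%, 22.3% and 29.0%. The counts of single lists below are small and are read beside these shares. Their summed TPM was 4437 in replicate 1 and 3490 in replicate 2. Of the 42 detected, 15 were past 4-fold and higher in replicate 1, and 9 past 4-fold and higher in replicate 2. Over all detected genes, the shares were 22.4% and 29.2%.

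Of 8 regulators beside Pparg and Cebpa, 4 were detected, 1 in both libraries, 2 in replicate 1 only and 1 in replicate 2 only. Over all genes detected in at least 1 library, these shares were 48.7%, 22.3% and 29.0%. The regulator in both was Ebf2, an early factor of the lineage, at 25.1 TPM in replicate 1 and 14.3 TPM in replicate 2. Ebf1 had 72.9 TPM in replicate 1 and 0.750 TPM in replicate 2, and Rxra, the receptor that pairs with PPARG, had 1528 reads in replicate 1 and 0 in replicate 2. Srebf1, named after its values were seen, had 0 reads in replicate 1 and 13.6 TPM in replicate 2. Klf15 and Cebpd, named after their values were seen, had 0 reads in both.

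Triglyceride synthesis and breakdown were found in part. Of 6 synthesis genes beside Gpam and Dgat2, 5 were detected, 2 of them in both libraries. The share in both over all detected genes was 48.7%. Acsl1, which activates fatty acids, had 268 TPM in replicate 1 and 126 TPM in replicate 2. Gpd1, which supplies glycerol phosphate, had 172 TPM in replicate 1 and 68.1 TPM in replicate 2. Dgat1, the other acyltransferase of the last step, had 83.7 TPM in replicate 1 and 0 reads in replicate 2, and Agpat2, of the second step, 20.5 TPM in replicate 1 and 0 reads in replicate 2. Gk, named after its values were seen, went the other way, with 0 reads in replicate 1 and 15.8 TPM in replicate 2. Lipolysis had 5 of 7 detected, 3 of them in both libraries. Pnpla2, the first triglyceride lipase, had 450 TPM in replicate 1 and 245 TPM in replicate 2. Mgll, the last lipase, had 57.9 TPM in replicate 1 and 23.5 TPM in replicate 2. Lipe, also in both and named after its values were seen, went the other way, with 1.86 TPM in replicate 1 and 37.0 TPM in replicate 2. Abhd5, the activator of the Pnpla2 lipase, was found in replicate 1 only, at 34.5 TPM, and G0s2, an inhibitor of the same lipase, in replicate 2 only, at 85.8 TPM.

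All 7 lipid droplet genes were detected, 4 of them in both libraries, beside 48.7% in both over all detected genes. Cidec, which fuses droplets in white fat, had 299 TPM in replicate 1 and 39.0 TPM in replicate 2, and Cav1, the coat protein of caveolae, had 278 TPM in replicate 1 and 520 TPM in replicate 2. Of the other perilipins, Plin4 was found in replicate 1 only, at 63.6 TPM, and Plin5 in replicate 2 only, at 43.0 TPM. Plin2 and Plin3, named after their values were seen, were found in both. Plin2 had 162 TPM in replicate 1 and 7.68 TPM in replicate 2, and Plin3 had 150 TPM in replicate 1 and 124 TPM in replicate 2. All 8 uptake genes were detected, 6 of them in both libraries. Fabp3, the muscle fatty acid carrier, had 356 TPM in replicate 1 and 871 TPM in replicate 2. The transporter Cd36 had 292 TPM in replicate 1 and 228 TPM in replicate 2. The fatty acid transporter Slc27a1, at 130 TPM, and Lmf1, which helps lipases mature, at 53.1 TPM, were found in replicate 1 only. Fatty acid synthesis had 7 of 8 detected, 4 of them in both libraries. Acly had 64.7 TPM in replicate 1 and 85.0 TPM in replicate 2, and Thrsp had 97.9 TPM in replicate 1 and 20.7 TPM in replicate 2. The desaturase Scd1 was found in replicate 1 only, at 14.5 TPM, and the fatty acid synthase Fasn was detected in replicate 2 only, with 0.0500 TPM in replicate 1 and 6.50 TPM in replicate 2. Other secreted products had 4 of 6 detected, 3 of them in both libraries. Apoe had 552 TPM in replicate 1 and 244 TPM in replicate 2. Angiotensinogen, Agt, had 210 TPM in replicate 1 and 69.9 TPM in replicate 2. Nampt was found in replicate 2 only, at 15.7 TPM. Leptin, Lep, named after its values were seen, had 0 reads in both.

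Of 6 brown fat markers, 2 were detected, 0 of them in both libraries. That number is too small to set against the 48.7% in both over all detected genes. Cidea, at 99.7 TPM, and Ppargc1a, at 33.4 TPM and also a muscle gene, were found in replicate 1 only, with 0 reads in replicate 2. Ucp1, the uncoupling protein that defines brown fat, and Dio2, Elovl3 and Prdm16, named after their values were seen, had 0 reads in both libraries.

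Markers of other cells that share some of these genes also differed between the libraries, as did many genes. Over all genes detected in at least 1 library, 48.7% were found in both, 22.3% in replicate 1 only and 29.0% in replicate 2 only. Of the same genes, 22.4% were past 4-fold and higher in replicate 1, and 29.2% past 4-fold and higher in replicate 2. The counts of the lists below are read beside these shares. Endothelial markers were detected in both libraries for 6 of 10, in replicate 1 only for 3 and in replicate 2 only for 1, and summed to 596 TPM in replicate 1 and 265 TPM in replicate 2. Past 4-fold, 5 were higher in replicate 1 and 1 in replicate 2. Egfl7 had 209 TPM in replicate 1 and 140 TPM in replicate 2, and Esam had 74.5 TPM in replicate 1 and 88.8 TPM in replicate 2. Pecam1, the endothelial adhesion molecule, had 182 TPM in replicate 1 and 0.0600 TPM in replicate 2, and Cldn5 had 63.3 TPM in replicate 1 and 0 reads in replicate 2. Others were higher in replicate 2, among them, named after their values were seen, the receptor Tie1 at 5.03 TPM in replicate 1 and 21.6 TPM in replicate 2 and Kdr at 0 reads in replicate 1 and 3.72 TPM in replicate 2. Macrophage markers were found in both for 4 of 8, in replicate 1 only for 0 and in replicate 2 only for 2, and summed to 633 TPM in replicate 1 and 426 TPM in replicate 2. Past 4-fold, 2 were higher in replicate 1 and 3 in replicate 2. The complement genes C1qa and C1qb had 165 TPM and 280 TPM in replicate 1, and 142 TPM and 44.3 TPM in replicate 2, while C1qc, at 88.2 TPM, and Cd68, at 67.0 TPM, were found in replicate 2 only. Adgre1, named after its values were seen, had 0 reads in both. Markers of fibroblasts and fat cell precursors had 7 of 8 detected, 5 of them in both libraries. They summed to 621 TPM in replicate 1 and 557 TPM in replicate 2. Dlk1, the preadipocyte factor, had 202 TPM in replicate 1 and 177 TPM in replicate 2, and Cd34 had 257 TPM in replicate 1 and 217 TPM in replicate 2. Pdgfrb, with 11.5 TPM in replicate 1 and 0.630 TPM in replicate 2, was detected in replicate 1 only, and Cd55 in replicate 2 only, at 18.8 TPM. The part of these cells in the levels of Fabp4, Lpl and the other members was not tested.

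**Figure D4:**
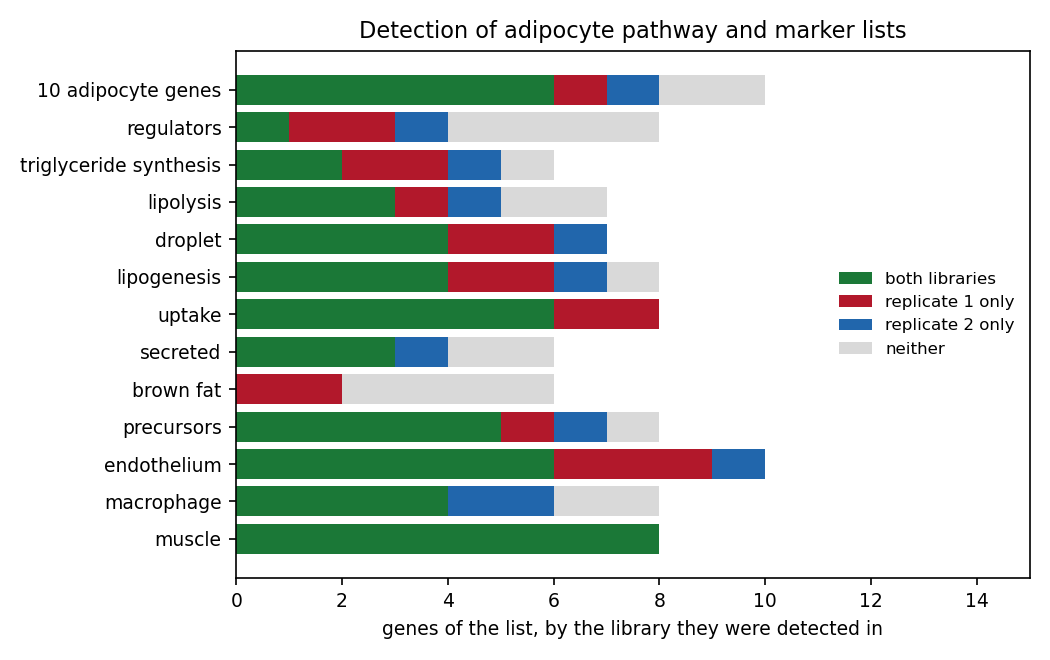
Number of genes (horizontal) in each list (vertical) that were detected in both libraries, in replicate 1 only, in replicate 2 only or in neither. The 10 adipocyte genes gave 6, 1, 1 and 2. Regulators had 1 of 8 in both and brown fat markers 0 of 6, with 4 and 2 detected at all. All 8 muscle markers were in both.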

How the data were processed

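RNA of newborn muscle was measured in 2 libraries of 1 group; per the labels, RNA was extracted with mirVana, sizes above 200 were used and cDNA was amplified by a SmartSeq protocol. Per the file headers and the notes deposited with them, the assembly was mm10 and the annotation GENCODE M4; for the aligner, its version and the strand setting, nothing is stated in the sources used here. Expected counts were deposited by the authors without normalization, TPM scaled by the authors over all rows with spike-ins included, and FPKM likewise per the file headers. The deposited transcript shares are percent of a gene's TPM, and the deposited posterior SDs of counts were used as a score of ambiguity.

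Symbols and positions came from GENCODE M21 on GRCm38, the same assembly, and 42462 genes matched. Numbered rows and the phiX row, with 0 and 182 expected counts, were left out. Members, lists and thresholds were chosen with earlier results of these data known. All members were named; of each other list, up to 2 genes detected in both libraries and up to 2 in 1 only, with the highest TPM, and genes named beyond this rule are marked as named after their values were seen; of the muscle list, only counts and sums are given. The ratio calculation was tested on simulated counts with planted changes and counting error only. These hold no RNA lost before amplification, so the test does not bear on the calls in these libraries. Expected counts were rounded for edgeR 4.0.16 and DESeq2 1.42.0 in R 4.3.3, which served for alternative scaling only. Other steps used Python 3.11.15, numpy 2.4.6, pandas 2.3.3, scipy 1.17.1 and matplotlib 3.10.9. Alternatives covered detection rule, depth, scaling, pseudocount, unit and estimate.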

Additional observations from a re-analysis of the deposited data

How the results depend on the processing

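The number of members detected in both libraries stayed between 6 and 8 under every detection rule, depth and estimate tried, and was 7 in either library alone. The number lost in one library was 0, in place of 2, when loss required 0 expected counts in the other library, and also 0 when at least 5 expected counts sufficed with no TPM minimum, a rule added after seeing the data; by construction, Gpam and Plin1 with 10 and 8 reads then count as found. Members past 4-fold numbered 4 under every other scaling, pseudocount, unit and estimate and 3 when centred on spike-ins, where Adipoq stood at 1.15. The median log2 ratio of the members was 0.25 with TMM and 0.24 with DESeq2 size factors, against 0.08, and −0.83 centred on spike-ins; spike-in centring also turned the sign of Fabp4, Lpl and Retn, none of them past 4-fold. Gpam ranged from 4.83 to 8.24, Cfd from 3.75 to 4.73 and Plin1 from −6.14 to −3.85. The summed TPM was 1145 without Fabp4 and 2111 over genes alone, against 1942. Both lay within 1 SD, but that SD of 1059 comes from 2 libraries and is too wide to serve as a check. By reads in place of TPM, the share of Lpl-201 averaged 82.1% in place of 68.0% and that of Fabp4-201 90.9% in place of 98.0%. How far RNA lost before amplification bears on the levels of Pparg and Cebpa was not tested. No paired analysis was possible because both libraries belong to 1 group.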
